A study of Capra hircus with 3 samples.

Results

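The miR-148 and miR-152 family comprises the precursors miR-148a, miR-148b and miR-152, whose 3p arms share a seed. Flank skin of adult Shanbei White cashmere goats was taken in anagen (growth), catagen (regression) and telogen (rest), and small RNAs of 18 nt or longer were sequenced. Each stage was 1 library made from the mixed skin of 10 goats, both sexes together, so the stage and its pool cannot be told apart and no p-value is given for any difference between stages. Members were the tags (distinct read sequences) that share their first 18 nt with a tag that a shortened copy of the study's list of conserved miRNAs gives for these precursors. The rule found 450 distinct tags of 4043974, of which the anagen library held 197, the catagen library 240 and the telogen library 290. The 3 members are among 304 precursor names to which reads could be given in this way. The family was chosen by measured values, namely the normalised read count of its most-read miR-152 tag, which is highest in catagen, so its levels by stage are a description. Where 3 read counts, levels or shares of one arm or miRNA follow each other without stage names, they stand for anagen, catagen and telogen in that order. The list holds no tag that begins where the 3p arm of miR-148b begins. This arm was therefore counted outside the rule, through 75 tags whose first 14 nt are the start of the arm as held in a listed fragment of the precursor. No tag of miR-152-5p is listed, and this arm was not analysed here.

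A miRNA guides a silencing complex to target mRNAs, and pairing of its bases 2 to 8, the seed, is the main determinant of which mRNAs are recognised. Members of this family share the seed and therefore share many predicted targets, of which DNMT1, the maintenance DNA methyltransferase, is among the best known. The precursors come from separate genes. In the goat gene table (assembly ARS1.2), MIR148B overlaps COPZ1, which encodes a coatomer subunit. MIR148A overlaps LOC108635844, and NFE2L3, which encodes a transcription factor, is among the genes near it. MIR152 has no entry. Mature miRNAs also occur as isomiRs, variants whose ends are shortened or carry added bases, most often U or A at the 3′ end.

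The sequences below are the most-read tags of the arms, shown because every count rests on telling them apart. They are written 5′ to 3′ as in the files, with T standing for U, and the capitals mark the seed.
miR-152-3p: tCAGTGCAtgacagaacttgg
miR-148a-3p: tCAGTGCActacagaactttgt
miR-148b-3p: tCAGTGCAtcacagaactttgt
miR-148a-5p: aAAGTTCTgagacactccgact
miR-148b-5p: gAAGTTCTgttatacactcaggct
The 3p arms carried one seed, CAGTGCA, and the 5p arms of miR-148a and miR-148b carried another, AAGTTCT. In the next lines the capitals mark the bases that are not shared by all 3p arms.
miR-152-3p: tcagtgcaTGacagaacttGg
miR-148a-3p: tcagtgcaCTacagaacttTgt
miR-148b-3p: tcagtgcaTCacagaacttTgt
Positions are counted from 1 at the 5′ end. From miR-152-3p, whose base is written first, miR-148a-3p differed by T9C, G10T and G20T, and miR-148b-3p by G10C and G20T. From miR-148a-3p, whose base is then written first, miR-148b-3p differed by C9T and T10C. Within the first 18 nt, miR-152-3p and miR-148b-3p thus differed at base 10 alone.

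The levels are TPM, which here means reads per 1000000 clean reads, and the brackets give exact Poisson 95% intervals. These cover counting error only and not the spread between animals, pools or libraries. miR-152-3p had 18979, 61759 and 43809 reads, which were 1186 TPM (1170 to 1203), 3410 TPM (3383 to 3437) and 1622 TPM (1606 to 1637). It was the most-read member in each library, highest in catagen and lowest in anagen, and its precursor ranked between 11 and 15 of 304 by reads. Ranks hold only for counts under the rule, which took in few reads of some miRNAs that the paper places among the most-read. One such is mir-199a, with 1, 0 and 1 reads. miR-148a-3p had 3207, 6669 and 6845 reads, which were 200.5 TPM (194 to 208), 368 TPM (359 to 377) and 253 TPM (247 to 259). It stood in the same order over the libraries at a lower level, and its precursor ranked between 27 and 29. miR-148b-3p had 1185, 1725 and 2377 reads, which were 74.1 TPM (69.9 to 78.4), 95.2 TPM (90.8 to 99.8) and 88.0 TPM (84.5 to 91.6). The intervals of miR-148b-3p in catagen and telogen overlapped, whereas those of miR-152-3p and miR-148a-3p were separate for every pair of libraries. Whole skin was sampled, so fewer cells of a type and less RNA per cell cannot be told apart.

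**Figure D1:**
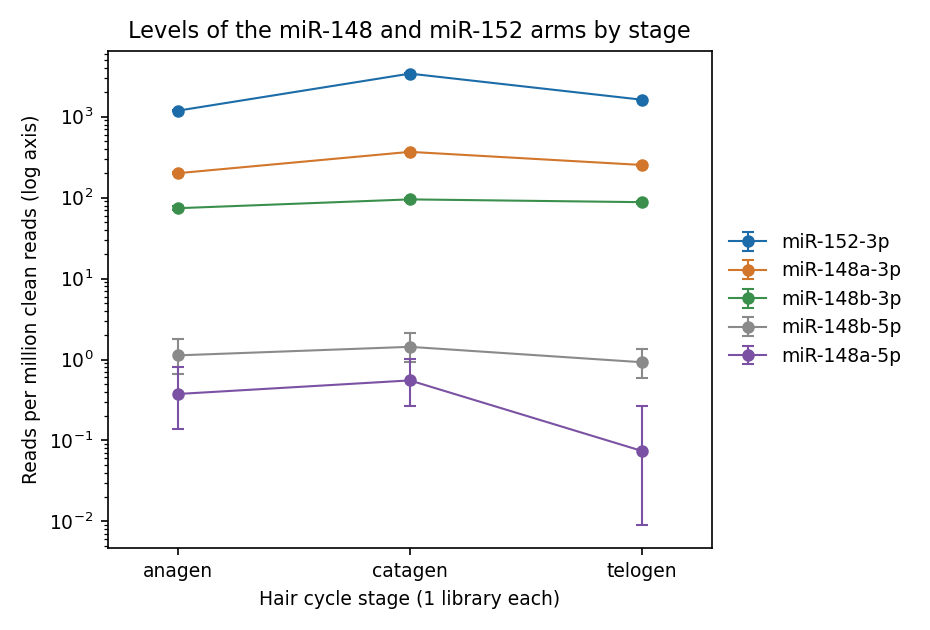
TPM (log axis) of each arm of the family in the anagen, catagen and telogen libraries, 1 library each, with exact 95% counting intervals. The points of miR-152-3p (1186, 3410 and 1622), miR-148a-3p (200.5, 368 and 253) and miR-148b-3p (74.1, 95.2 and 88.0) are highest in catagen, and the 5p arms lie below 2 TPM.

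As a log2 ratio of TPM, miR-152-3p in catagen over anagen was 1.52 (1.50 to 1.55), a 2.87-fold difference. Brackets after ratios give exact Clopper-Pearson intervals, which also cover counting error only. For miR-148a-3p the same ratio was 0.88 (0.82 to 0.94), and for miR-148b-3p it was 0.36 (0.26 to 0.47). Catagen over telogen gave 1.07 (1.05 to 1.09) for miR-152-3p and 0.54 (0.49 to 0.59) for miR-148a-3p. For miR-148b-3p that ratio was 0.11 (0.024 to 0.20), and its sign turned to -0.29 when reads were scaled to the precursor reads in place of the clean reads and to -0.032 with median-of-ratios size factors. Telogen over anagen was 0.45 (0.43 to 0.48), 0.34 (0.28 to 0.40) and 0.25 (0.15 to 0.35) for miR-152-3p, miR-148a-3p and miR-148b-3p. With all tags counted, the ratio was largest for miR-152-3p and smallest for miR-148b-3p in all 3 pairs of libraries. In telogen over anagen this order turned round for tags of 21 nt or longer, with 0.51 (0.48 to 0.54), 0.60 (0.53 to 0.68) and 0.94 (0.81 to 1.08), and for the most-read tag, with 0.52, 0.57 and 0.87.

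The other precursors, counted by the same 18 nt rule, place these ratios. With an absolute log2 ratio above 1 as the limit, and 1 TPM in either library as the minimum, 64 of 218 precursors (29.4%) were past it in catagen over anagen. Of these, 56 (25.7%) were higher in catagen and 8 (3.67%) lower, and miR-152 was the 1 member of 3 past the limit. In catagen over telogen, 28 of 219 (12.8%) were past it, 19 (8.68%) higher and 9 (4.11%) lower, and miR-152 was again the 1 member past the limit. In telogen over anagen 58 of 217 (26.7%) were past it, 46 (21.2%) higher and 12 (5.53%) lower, with no member among them. The contrast was used to pick the family, so nothing is read from these counts for the members. Ordered by the ratio, the miR-152 precursor stood at place 18 of 218 in catagen over anagen, 18 of 219 in catagen over telogen and 94 of 217 in telogen over anagen. The median log2 ratio of all precursors tested was 0.42, 0.11 and 0.30 in the same pairs. It was 0.88, 0.63 and 0.34 for the 3 members, where the rule counts miR-148b by its 5p arm alone. The 0.63 is the ratio of miR-148b itself, from 26 and 25 reads (-0.22 to 1.49). In that pair miR-148b reached 1 TPM only in catagen, with 1.44 TPM against 0.925 in telogen. Nothing is read from the medians of the members.

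**Figure D2:**
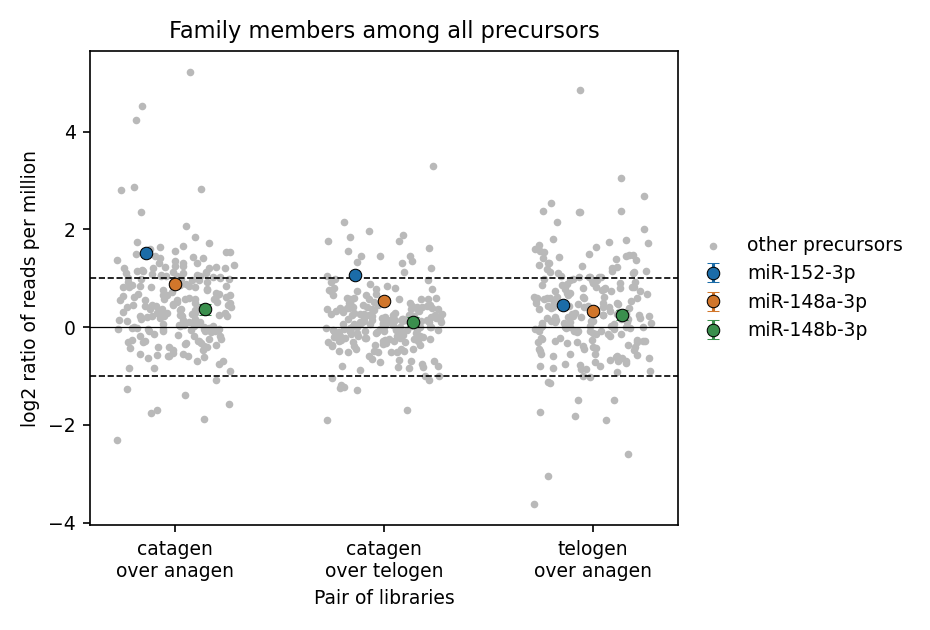
log2 ratio of TPM for each pair of libraries, with a grey point per other precursor, coloured points with exact 95% counting intervals for the 3p arms of the family, and dashed lines at -1 and 1. miR-152-3p is at 1.52, 1.07 and 0.45 from left to right and lies above both other arms of the family in each pair, within the spread of the grey points.

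Whether miR-152-3p was past the limit depended on the scaling. Its ratio of catagen over anagen was 1.39 when scaled to the reads of all precursors, 0.98 without the largest precursor (let-7f) and 1.59 without let-7f and the muscle miRNAs, and 1.22 with size factors over 126 precursors, so it was below the limit in 1 of these scalings. The ratio of catagen over telogen was 0.66, 0.56, 0.99 and 0.93 under the same scalings, below the limit in each of them. Size factors moved the log2 ratio of every precursor by -0.31 in catagen over anagen, -0.15 in catagen over telogen and -0.16 in telogen over anagen. The share of precursors past the limit that were higher in the first-named library also depended on the scaling. In catagen over anagen it was 87.5% with clean reads, 66.7% with size factors and 81.3% with precursor reads. In catagen over telogen it was 67.9%, 57.1% and 33.3%, and in telogen over anagen it was 79.3%, 68.6% and 90.0%. miR-152-3p was highest in catagen under each of these scalings, and miR-148a-3p with clean reads, precursor reads and size factors, the scalings computed for it.

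Within the family, miR-152-3p supplied 81.2% (95% Wilson interval 80.7 to 81.7), 88.0% (87.8 to 88.3) and 82.6% (82.3 to 82.9) of the reads of the 3 arms. This share does not depend on how libraries are scaled, but it does depend on the read lengths counted. In anagen, reads of 18 to 20 nt were 8.26% of miR-152-3p, 30.2% of miR-148a-3p and 50.0% of miR-148b-3p. In catagen they were 1.17%, 5.52% and 10.7%. The rule picked the family for a miR-152 tag that is highest in catagen, so the higher share there is a description. miR-148a-3p supplied 13.7%, 9.51% and 12.9%, and miR-148b-3p supplied 5.07%, 2.46% and 4.48%. The arms summed to 1461, 3873 and 1963 TPM. All tags with CAGTGCA at bases 2 to 8, whatever follows, numbered 1039 and summed to 1494, 3896 and 1982 TPM, so the 3 arms were 97.8%, 99.4% and 99.0% of this seed in the libraries. The remainder was 534, 404 and 527 reads. Of these reads, 81.3% were on 333 tags that lay within 2 substitutions of the first 18 nt of a family arm.

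The separation of miR-152-3p from miR-148b-3p rests on base 10. The miR-152 start with G10A had 5, 4 and 8 reads, and that with G10T had 21, 28 and 23. With G10C, the change that gives the start of miR-148b, it had 1164, 1714 and 2367 reads. These were far above the other changes at this base and were not in proportion to the 18979, 61759 and 43809 reads of miR-152-3p. Base 20 gives a second comparison between the arms. Of the miR-148b-3p reads that reached it, 770 of 778 (99.0%), 1619 of 1635 (99.0%) and 2163 of 2179 (99.3%) carried the miR-148b base, and 7, 14 and 13 carried that of miR-152. Tags 1 substitution away from an arm were not counted, and their reads came to at most 3.08% of miR-152-3p, 5.71% of miR-148a-3p and 7.26% of miR-148b-3p, each time in anagen.

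Read length differed between the libraries in each 3p arm. Reads of 18 to 20 nt were 8.26% (Wilson interval 7.87 to 8.66), 1.17% (1.08 to 1.25) and 4.43% (4.24 to 4.63) of miR-152-3p. They were 30.2%, 5.52% and 16.0% of miR-148a-3p, and 50.0%, 10.7% and 19.1% of miR-148b-3p. In each arm the short share was highest in anagen and lowest in catagen, and in each library it was lowest for miR-152-3p and highest for miR-148b-3p. The same order of stages held in 78 of 124 other precursors with at least 100 reads in each library (62.9%). Their median short share was 8.06% (interquartile range 3.22 to 18.3), 2.66% (1.11 to 7.59) and 3.65% (1.55 to 10.3). In anagen and in telogen miR-148a-3p and miR-148b-3p lay above that range and miR-152-3p inside it. In catagen miR-148b-3p alone of the arms lay above it. The authors removed reads under 18 nt, which were 3.38%, 2.66% and 0.566% of the high-quality reads, so shorter products are not in these counts. Their part in the result was not tested.

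**Figure D3:**
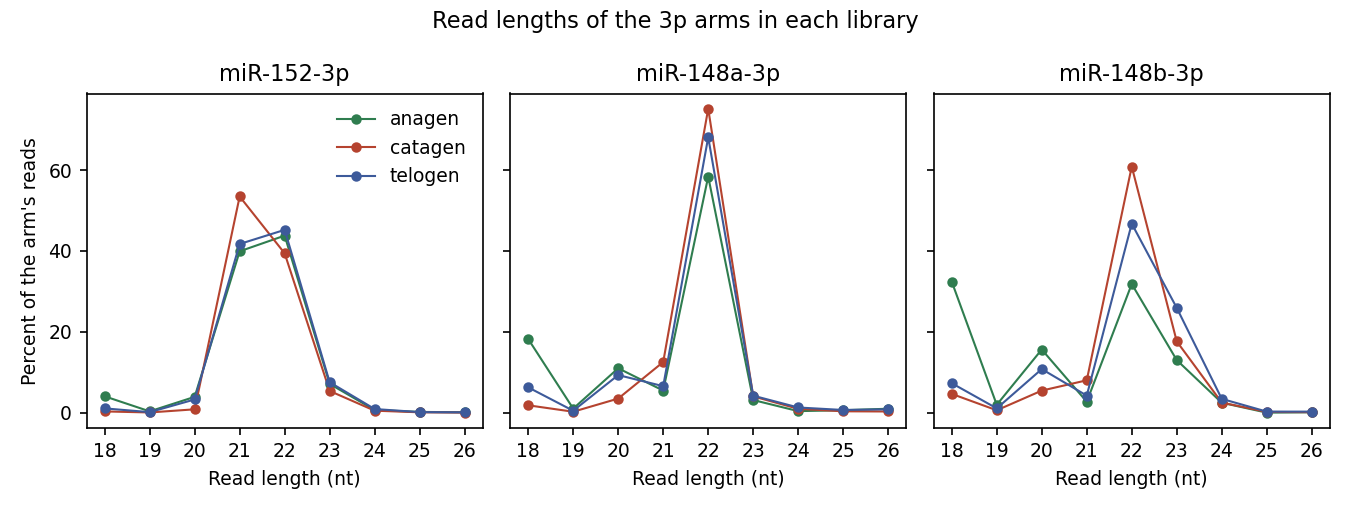
Percent of the reads of each 3p arm (vertical axis) by read length in nt (horizontal axis), with a line for each library. The peak is at 21 to 22 nt for miR-152-3p and at 22 nt for miR-148a-3p, and in anagen the 18 to 20 nt reads are 8.26%, 30.2% and 50.0% of miR-152-3p, miR-148a-3p and miR-148b-3p.

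Split by length, the ratio of catagen over anagen changed sign within each arm. At 18 nt it was -2.22 (-2.46 to -1.99) for miR-152-3p, -2.45 (-2.74 to -2.17) for miR-148a-3p and -2.44 (-2.81 to -2.09) for miR-148b-3p. In the same order of arms, at 20 nt it was -0.72 (-0.89 to -0.56), -0.78 (-1.03 to -0.54) and -1.16 (-1.53 to -0.79). At 21 nt it was 1.95 (1.91 to 1.98), 2.08 (1.84 to 2.32) and 1.93 (1.37 to 2.53). Reads of 18 or 20 nt were thus lower in catagen than in anagen for all 3 arms, and reads of 21 nt were higher. At 22 nt it was 1.37 (1.34 to 1.41), 1.24 (1.16 to 1.32) and 1.30 (1.13 to 1.47), and at 23 nt it was 1.12 (1.03 to 1.21), 1.24 (0.91 to 1.59) and 0.80 (0.52 to 1.09). The arms lay nearer to each other at each of these lengths than over all lengths together, where they gave 1.52, 0.88 and 0.36. For reads of 21 nt or longer together the ratio of these arms was 1.63, 1.31 and 1.20. Reads of 21 nt or longer gave 1.12 (1.10 to 1.14) for miR-152-3p, 0.71 (0.66 to 0.76) for miR-148a-3p and 0.26 (0.16 to 0.35) for miR-148b-3p in catagen over telogen. The intervals of the arms were thus separate in that pair, with miR-152-3p highest, whereas in telogen over anagen reads of this length gave 0.51, 0.60 and 0.94, with miR-148b-3p highest.

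Other precursors with at least 20 reads of a given length in both libraries had a median log2 ratio of catagen over anagen of -2.21 at 18 nt (25 precursors), -0.45 at 20 nt (69), 0.33 at 21 nt (106), 0.50 at 22 nt (135) and 0.51 at 23 nt (116). Ratios at 18 nt were below 0 in 22 of these 25 precursors (88.0%). At 18 nt the family arms were near that median, and at 21 and 22 nt they were above the upper quartile, which was 0.75 and 1.01. The family was picked by the level of a 21 nt miR-152 tag, so the place of miR-152-3p among other precursors is a description only. In catagen over telogen the medians were between -0.11 at 18 nt and 0.17 at 22 nt, whereas miR-152-3p was at -0.73 (-0.99 to -0.48) at 18 nt and 0.87 (0.85 to 0.90) at 22 nt.

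**Figure D4:**
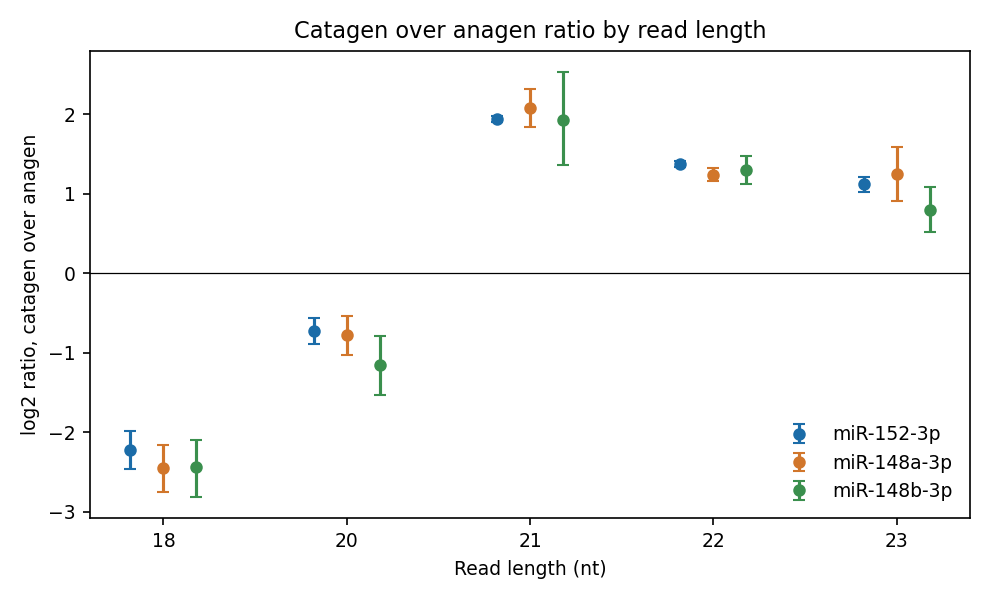
log2 ratio of TPM in catagen over anagen (vertical axis) by read length in nt (horizontal axis) for each 3p arm, with exact 95% counting intervals. Points are below 0 at 18 and 20 nt and above 0 at 21, 22 and 23 nt for all 3 arms, from -2.45 for miR-148a-3p at 18 nt to 2.08 for the same arm at 21 nt.

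The most-read tags show which isomiRs carried these values. The most-read tags of miR-152-3p ended at base 21, without or with added bases, and are shown with the added bases in capitals.
miR-152-3p, 21 nt: tcagtgcatgacagaacttgg
miR-152-3p, T added: tcagtgcatgacagaacttggT
miR-152-3p, A added: tcagtgcatgacagaacttggA
miR-152-3p, TA added: tcagtgcatgacagaacttggTA
miR-152-3p, TT added: tcagtgcatgacagaacttggTT
The longest listed sequence, tCAGTGCAtgacagaacttgggc, goes on with G and C after base 21, so the added T and A are not in it. The 21 nt tag had 7472, 32715 and 18077 reads, which was 467, 1806 and 669 TPM. This is the tag whose level picked the family. The T-added tag had 6790, 19528 and 16619 reads, and its ratio of catagen over anagen was 1.35 against 1.95 for the 21 nt tag. The A-added tag had 1271, 4142 and 2605 reads, and its ratio was 1.53. The TA-added tag had 496, 1349 and 1308 reads and the TT-added tag 554, 1300 and 1290. The remaining tag among the 6 most-read, 20 nt long, went the other way, with 713, 476 and 1408 reads and a ratio of -0.76 in catagen over anagen.

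For miR-148a-3p the 22 nt tag had 1704, 4661 and 4275 reads, which was 53.1%, 69.9% and 62.5% of the arm. Its 21 nt tag had 161, 815 and 428 reads. Its 18 nt tag had 584, 121 and 428 reads. Thus the full-length and 21 nt tags were highest in TPM in catagen and the 18 nt tag was highest in anagen. The most-read tag of miR-148b-3p, 22 nt, had 343, 997 and 1060 reads, which was 28.9%, 57.8% and 44.6% of the arm. In anagen it was exceeded by the 18 nt tag of that arm, which had 379, 79 and 173 reads. The ratio of catagen over anagen of the 22 nt tags was 1.27 for miR-148a-3p and 1.36 for miR-148b-3p. The 6 most-read tags of an arm held between 90.6% and 96.4% of its reads.

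The share of reads with added T at the 3′ end differed between the arms more than between the libraries. Reads with only T added were 40.1%, 34.7% and 42.1% of miR-152-3p, and reads with only A added were 7.70%, 7.42% and 6.98%. In miR-148a-3p, T-only reads were 1.06%, 0.765% and 0.657% and A-only reads 6.27%, 8.29% and 8.39%. In miR-148b-3p, T-only reads were 12.5%, 16.5% and 24.9% and A-only reads 3.46%, 5.62% and 5.17%. T was thus the usual added base in miR-152-3p and miR-148b-3p, and in miR-148a-3p A was counted more often than T, over all ends together. The added bases of the miR-148 arms are shown in capitals.
miR-148a-3p, A added: tcagtgcactacagaactttgA
miR-148a-3p, AA added: tcagtgcactacagaactttgAA
miR-148b-3p, T added: tcagtgcatcacagaactttgtT
miR-148b-3p, A added: tcagtgcatcacagaactttgtA
The reference for miR-148a-3p was its longest listed sequence, tCAGTGCActacagaactttgtctc, in which base 22 is T, so a T added after base 21 cannot be told apart from the listed base. For miR-148b-3p no listed sequence runs past base 22, and a base after it cannot be told apart from a longer product.

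The same shares were taken for each end separately. Reads of miR-152-3p whose listed part ended at base 21 were 88.9%, 96.7% and 92.8% of the arm. Of these, 43.8% (Wilson interval 43.1 to 44.6), 35.0% (34.6 to 35.4) and 44.3% (43.8 to 44.8) had only T added, so this share was lowest in catagen and the intervals of anagen and telogen overlapped. A-only reads were 8.13%, 7.35% and 7.09% of the same end. For miR-148b-3p reads that ended at base 22, T-only reads were 28.2% (24.5 to 32.2), 21.2% (19.1 to 23.5) and 33.4% (31.3 to 35.7), which was again lowest in catagen. In miR-148a-3p the end at base 21 was 12.0%, 20.4% and 14.9% of the arm, and A-only reads were 47.4% (42.5 to 52.4), 36.9% (34.4 to 39.5) and 49.4% (46.3 to 52.4) of it. At its main end, base 22, T-only reads were 1.45%, 0.870% and 0.748% and A-only reads 0.616%, 0.849% and 1.12%, so A did not exceed T there in anagen or catagen. The excess of A in this arm thus lay at base 21, where an added T cannot be seen. The T-only share of miR-152-3p at base 21 and of miR-148b-3p at base 22, and the A-only share of miR-148a-3p at base 21, were thus lowest in the catagen library. The order differed at the little-used end of miR-152-3p at base 20, which was 4.33%, 1.27% and 3.73% of the arm. There T-only reads were 9.99% (8.12 to 12.2), 27.1% (24.1 to 30.3) and 9.19% (7.88 to 10.7), highest in catagen.

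**Figure D5:**
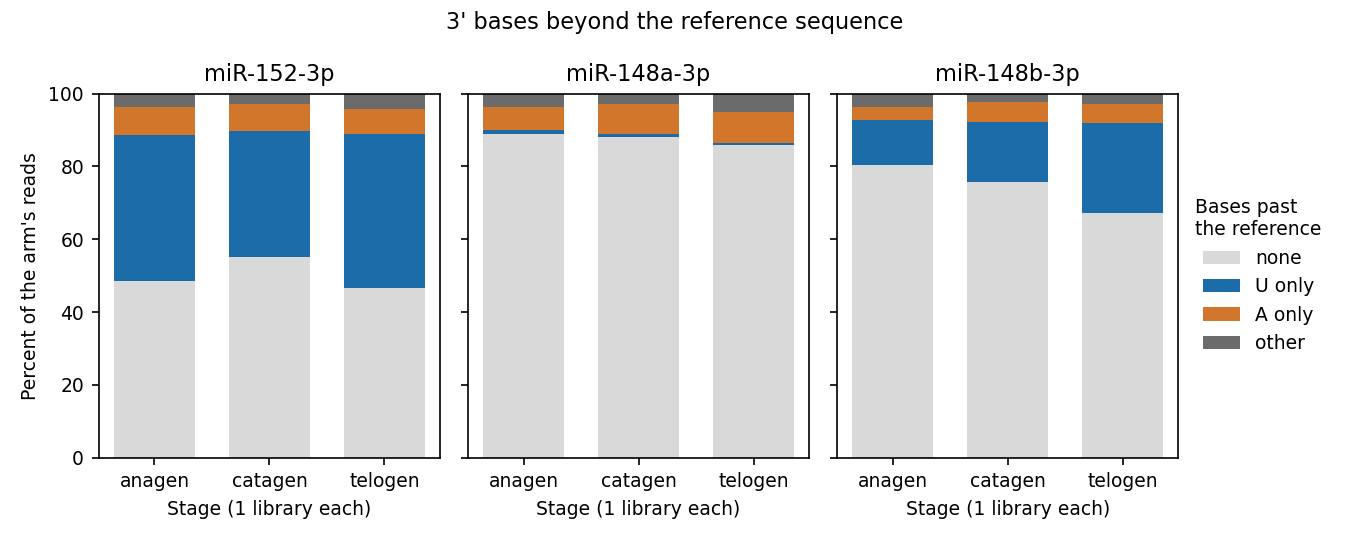
Stacked bars of the percent of the reads of each 3p arm (vertical axis) with no base past the reference, only U (T in the files), only A, or other bases, in each library. Reads with U only are 40.1%, 34.7% and 42.1% of miR-152-3p and at most 1.06% of miR-148a-3p.

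The 5′ end, which sets the seed, was nearly constant. Reads that began at base 1 were 99.7% to 99.9% of miR-152-3p, 99.8% to 99.9% of miR-148a-3p and 99.8% to 99.9% of miR-148b-3p. The most-read tags of miR-152-3p with a shifted start are shown with the seed that results in capitals.
miR-152-3p from base 3: aGTGCATGacagaacttggt
miR-152-3p from base 2: cAGTGCATgacagaacttgg
miR-152-3p from 1 base before: gTCAGTGCatgacagaacttgg
Starts at base 3 had 45, 34 and 5 reads, starts at base 2 had 1, 23 and 4, and starts 1 base before had 18, 19 and 23. These counts of starts came to 64, 76 and 32 reads and were not limited to the tags of the rule. The shifted starts that the rule took in summed to 61, 70 and 20 reads, which were 3.81, 3.86 and 0.740 TPM. These tags were thus about equal in TPM in anagen and catagen, with a log2 ratio of 0.019 (-0.50 to 0.54), and lower in telogen, where telogen over anagen gave -2.36 (-3.17 to -1.62). This order is not that of the arm as a whole.

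The 5p arms were rare. miR-148a-5p had 6, 10 and 2 reads, and 3 reads are the floor of detection used, which was 0.188, 0.166 and 0.111 TPM, so no level, ratio or share is read from telogen. Its share of the reads of both miR-148a arms was 0.187% in anagen and 0.150% in catagen. miR-148b-5p had 18, 26 and 25 reads, which were 1.13, 1.44 and 0.925 TPM, and its share of the reads of both arms was 1.50%, 1.48% and 1.04%. A difference between stages was not detectable for miR-148b-5p at this depth, since its log2 ratios were 0.35 (-0.57 to 1.30) in catagen over anagen, 0.63 (-0.22 to 1.49) in catagen over telogen and -0.28 (-1.21 to 0.68) in telogen over anagen. By share of its precursor, the 5p arm of miR-148b was more frequent than that of miR-148a in the anagen and catagen libraries.

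The precursors whose profile over the 3 libraries was nearest to that of miR-152, among 125 with at least 100 reads in each library, were miR-486, miR-3432, miR-497, miR-432 and miR-421. The measure was the Euclidean distance between centred log2 TPM values, over 3 libraries only. miR-486, which is abundant in red blood cells, had 335, 779 and 438 TPM and was at 0.225. miR-3432 had 496, 1104 and 554 TPM (0.273), miR-497, of the miR-15 and miR-16 family, had 52.5, 109 and 62.2 TPM (0.330), miR-432 had 33.4, 77.0 and 50.7 TPM (0.339) and miR-421 had 7.44, 31.3 and 11.4 TPM (0.398). Each was highest in catagen and lowest in anagen, which follows from choosing them by nearness to the miR-152 profile. The relatives of miR-152 were farther away, with miR-148a at place 11 (0.486) and miR-148b-3p at place 46 (0.875).

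Other miRNAs known to act on DNA methyltransferase mRNAs were taken as a list of 8, of which 7 had reads under the rule (mir-29a, mir-29b, mir-29d, mir-29e, mir-126, mir-185 and mir-342). Together they had 565, 652 and 737 TPM, against 1461, 3873 and 1963 TPM for the 3p arms of the family. The miR-29 members had few reads under the rule, with 30, 44 and 92 for mir-29a, and mir-29c was not held. The list of tags is a shortened copy, and starts listed for more than 1 precursor name were left out. The sum may thus miss reads of these miRNAs, and no order of the list and the family is read from it. Of the 7 with reads, 6 reached 1 TPM in either library of each pair, and mir-29b, with 4, 1 and 15 reads, did not. In catagen over anagen 2 of the 6 were past the limit and higher (mir-29d at 1.20 and mir-29e at 1.12) and 0 lower, against 25.7% and 3.67% of all precursors, and their median was 0.30 against 0.42. In catagen over telogen 0 were past the limit in either direction, against 8.68% and 4.11%, with a median of -0.20 against 0.11. In telogen over anagen 2 were higher, again mir-29d (1.59) and mir-29e (1.11), and 0 lower, against 21.2% and 5.53%. The median was 0.63 against 0.30. mir-29e had 11, 27 and 40 reads, which were 0.688, 1.49 and 1.48 TPM. It thus reached 1 TPM in both pairs with anagen only through the library where it was higher. Its intervals were 0.058 to 2.28 in catagen over anagen and 0.12 to 2.22 in telogen over anagen. Nothing is read from its place past the limit. mir-185, with 507, 593 and 671 TPM, supplied most of the list. Unlike miR-152-3p, it was highest in telogen.

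Markers of cells other than skin epithelium differed between the libraries as well. The muscle list (mir-1 and mir-206, with mir-133a and mir-133b) had 4117, 78789 and 21405 TPM, with mir-1 at 3898, 73849 and 20001 TPM and mir-206 at 192, 4440 and 1236. All 3 members with reads of their own were highest in catagen and lowest in anagen, the order also seen in miR-152-3p. The red blood cell list (mir-451, mir-144 and mir-486) had 1312, 2137 and 878 TPM, with mir-451 at 863, 1266 and 431 TPM. Of this list only mir-486 shared the order, with 335, 779 and 438 TPM. mir-451 and the list sum were highest in catagen but lowest in telogen. mir-144 was highest in anagen and lowest in telogen, with 114, 92.0 and 9.33 TPM. The epithelial list, of which mir-200b, mir-205 and mir-183 had reads under the rule, had 1197, 1943 and 2018 TPM, most of it mir-205 with 1005, 1794 and 1876 TPM. mir-200b was at 33.3, 41.0 and 40.1 TPM, and mir-183 was highest in anagen, with 159, 109 and 102 TPM. mir-126 of endothelium was at 38.9, 32.0 and 37.1 TPM, and mir-122 of liver was not on the list used. The list for dermal and smooth muscle cells had 335, 125 and 125 TPM and rested on mir-143 (308, 83.3 and 87.9 TPM), which was held only in part. Its other members went against that order, with mir-145 at 26.6, 39.9 and 35.6 TPM and mir-214 at 0.625, 1.49 and 1.63 TPM. mir-199a had 1, 0 and 1 reads under the rule, yet the paper places miR-199a-3p among the most-read miRNAs of every stage. The rule thus took in very little of mir-199a, and nothing is read from the sum of this list. Epithelial markers were thus present in every library, and the paper gives the tissue as skin. A muscle signal was also present, higher in catagen than in anagen by 4.24 on the log2 scale for mir-1. The part of these cells in the levels of the family was not tested.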

How the data were processed

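Small RNAs of pooled goat skin were sequenced on an Illumina/Solexa Genome Analyzer, with 1 library for each of anagen, catagen and telogen. The authors filtered out reads of low quality, those with 5′ primer sequence or poly(A), those lacking the 3′ primer or an insert, and those under 18 nt, then collapsed identical reads, so the deposited values are a count of reads per tag without normalisation. The deposited filtering record holds a count of the reads removed in each class. No alignment or genome build enters these values, and program versions for this step are not given in the sources used here. The anagen, catagen and telogen libraries held 15997828, 18111912 and 27016012 clean reads, so 1 read was worth 0.0625, 0.0552 and 0.0370 TPM.

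Tags of 18 to 44 nt were assigned by their first 18 nt to the precursors of the authors' list of conserved miRNAs, of which a shortened copy with 2697 distinct tags was used. Starts listed for more than 1 precursor name (15) were left out for all precursors. The rule can sum close relatives, such as those of let-7f. Counts were scaled to clean reads. Levels were given exact Poisson 95% intervals, ratios exact Clopper-Pearson 95% intervals and shares Wilson intervals (Python 3.11.15, numpy 2.4.6, scipy 1.17.1, matplotlib 3.10.9). With 1 library per stage and a family picked by its stage pattern, no test was run. The steps were tested on simulated data. Alternatives were the scaling, the tags counted and the minimum level. The tags named are the 6 most-read of each arm, and the other precursors named are the 5 nearest in profile to miR-152 and the members of the lists. The members and the lists were chosen with earlier results of these data known, and the length comparison of other precursors was added after the lengths of the family had been seen.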

Additional observations from a re-analysis of the deposited data

How the results depend on the processing

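The log2 ratio of miR-152-3p kept its sign under all 8 alternatives in both pairs with catagen. In catagen over anagen (1.52 as reported) it was 1.39 with precursor reads, 0.98 without the largest precursor, 1.59 without that precursor and the muscle list, 1.22 with size factors, 1.95 for the most-read tag, 1.63 for 21 nt or longer, 1.70 for exact parts of the longest listed sequence and 1.70 for listed tags. In catagen over telogen (1.07 as reported) the same alternatives gave 0.66, 0.56, 0.99, 0.93, 1.43, 1.12, 1.31 and 1.31. The most-read tag is the one whose catagen level picked the family, so its sign in these pairs was set by that choice. The other choices of tags include it. Exact parts of the longest listed sequence and listed tags gave the same values and do not count as separate alternatives. The kept sign is thus a description. The scalings move every precursor by the same amount in a pair; for the choices of tags the cause was not tested. miR-148b-3p in catagen over telogen (0.11 as reported) turned to -0.29 with precursor reads and to -0.032 (-0.12 to 0.058) with size factors. The other ratios kept their sign under 4 alternatives each (8 for miR-152-3p), with miR-152-3p in telogen over anagen between 0.29 and 0.73, miR-148a-3p between 0.57 and 1.31, 0.13 and 0.71, and 0.18 and 0.62 in catagen over anagen, catagen over telogen and telogen over anagen, and miR-148b-3p between 0.056 and 1.36 in catagen over anagen and 0.089 and 0.94 in telogen over anagen. With size factors these last intervals include 0 (-0.051 to 0.16 and -0.012 to 0.19), so the sign is not set there. The number of precursors past the limit in catagen over anagen (64 of 218, 29.4%) was 109 of 302 (36.1%) with no minimum, 22 of 126 (17.5%) with 100 reads or more in each library, 39 of 217 (18%) with size factors and 71 of 171 (41.5%) for the most-read tag of each. In catagen over telogen (28 of 219, 12.8%) these were 69 of 300 (23%), 13 of 143 (9.09%), 28 of 222 (12.6%) and 35 of 175 (20%), and in telogen over anagen (58 of 217, 26.7%) 101 of 301 (33.6%), 16 of 126 (12.7%), 51 of 222 (23%) and 57 of 174 (32.8%). Counting only exact parts of the listed sequence, the 18 to 20 nt share of miR-152-3p was 16.7%, 2.03% and 9.39% in anagen, catagen and telogen, because tags with added bases, which are longer, leave the total. No paired analysis was possible because each stage has 1 library, and no replicate could be left out. Below 3 reads no level is read, which limits the 5p arms.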
